A study of Mus musculus with 2 samples.

Results

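Peaks of *Gm19619* ChIRP-seq that lay near the ends of the 19 mouse autosomes are described here. A peak was taken where it started below 5 Mb of the mm10 coordinates (the centromere side) or ended within the last 2 Mb of its chromosome (the distal side), and its height played no part in the choice. By this rule 728 of the 17898 deposited peaks were chosen, 509 from the list of the odd-numbered probes and 219 from the list of the even-numbered probes. Of the odd peaks, 266 lay on the centromere side and 243 on the distal side, and of the even peaks 133 and 86. The peaks between the ends, called interior peaks below, numbered 13144 in the odd and 3234 in the even list.

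*Gm19619* is a long non-coding RNA of the mouse liver, and ChIRP pulls down the chromatin that an RNA touches with biotinylated antisense DNA probes. Primary hepatocytes of 4 wild-type female C57BL/6 mice, 8 weeks old, were pooled, fixed in 3% formaldehyde for 10 min and sonicated, and the lysate was divided between 7 odd-numbered and 7 even-numbered probes. No treatment or genotype separated the groups. They differed by the probe set, and each was a single library from pooled animals, so that probe set and library cannot be told apart. The purpose of such a split is to find sites that both sets retrieve. An input library, a pull-down without probes and an RNase-treated pull-down were not analysed here. With 1 library for each set there was no replicate error and no test between groups. The intervals given below are 95% intervals and cover counting error only. No marker of hepatocytes can be read from lists of genomic peaks, so the cell type rests on the label.

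Mouse autosomes are telocentric, with the centromere close to one tip of the chromosome. The centromere is built from short minor satellite repeats and is flanked by long blocks of the AT-rich major satellite, whose 234-bp unit is repeated in tandem and packed as heterochromatin. Nearly all of this sequence is missing from the reference genome, which represents it by a stretch of undetermined bases at the start of each chromosome. Each tip ends in a telomere, tandem copies of TTAGGG bound by the shelterin proteins. Next to the one at the distal tip lie subtelomeric repeats and segmental duplications that similar tips share.

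The sequences that carry the results are shown first, as the forward strand of the reference genome. The highest peaks of the centromere side lay on copies of the major satellite. One unit of 234 bases from the summit of the highest peak, chr9:3000453-3000686, is shown with capitals where the base 234 positions further along was the same (197 bases, 84.2%). Below it stand 120 bases around the summit of the peak on chromosome 12, chr12:3109929-3110048, with capitals where the base was the same as in the reverse complement of that unit. They were the same at 118 of 120 bases (98.3%).
centromere side of chromosome 9: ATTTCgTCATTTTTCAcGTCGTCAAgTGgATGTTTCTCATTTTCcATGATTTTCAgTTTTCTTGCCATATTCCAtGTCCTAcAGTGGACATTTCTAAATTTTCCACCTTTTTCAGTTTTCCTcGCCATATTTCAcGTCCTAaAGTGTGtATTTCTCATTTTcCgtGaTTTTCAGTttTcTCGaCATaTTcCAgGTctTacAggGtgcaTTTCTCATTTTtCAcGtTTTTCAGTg
centromere side of chromosome 12: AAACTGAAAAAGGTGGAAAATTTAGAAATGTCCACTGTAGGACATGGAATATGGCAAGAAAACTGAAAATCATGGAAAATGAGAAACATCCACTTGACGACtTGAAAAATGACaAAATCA

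The highest peaks of the distal side away from the telomere lay on a repeat with a 31-bp unit. Stretches of 93 bases around the odd summits are shown, chr13:119599036-119599128 and chr9:124256735-124256827, with capitals where the base 31 positions further along was the same. The best gap-free match of 62 bases between these stretches was 96.8% identical. A shorter repeat, of 19 bp, lay under a peak near the start of chromosome 10 (chr10:3112793-3112887), with capitals where the base 19 positions further along was the same.
far end of chromosome 13: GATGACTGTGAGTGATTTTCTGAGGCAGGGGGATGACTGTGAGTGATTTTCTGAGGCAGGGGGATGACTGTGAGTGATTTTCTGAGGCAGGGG
far end of chromosome 9: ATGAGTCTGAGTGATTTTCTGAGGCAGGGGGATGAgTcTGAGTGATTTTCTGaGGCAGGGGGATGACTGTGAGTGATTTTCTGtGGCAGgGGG
centromere side of chromosome 10: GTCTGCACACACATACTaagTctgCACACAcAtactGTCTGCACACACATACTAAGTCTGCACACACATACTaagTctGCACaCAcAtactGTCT

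Another kind of sequence, a run of at least 12 bases of an own probe, lay in a part of the end peaks that only the odd list held. The shares were 24.9% on the centromere side and 33.3% on the distal side, against 28.1% of such peaks in the interiors. The target of probe 7 lies at chr5:91258494-91258513, in *Gm19619* itself. The run of 12 bases that it shared with the highest distal odd peak of this kind (chr19:61315226-61315285, summit pileup 56) and the run that it shared with the highest on the centromere side (chr7:4864435-4864494, summit pileup 41) are in capitals. The match on chromosome 19 is on the opposite strand. The runs began 97 bases before and 57 bases after the odd summits.
target of probe 7, run on chromosome 19: gGGAACTGAGCTGtgagatg
distal side, peak of chromosome 19: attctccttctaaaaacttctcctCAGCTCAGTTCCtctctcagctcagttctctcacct
target of probe 7, run on chromosome 7: gggaACTGAGCTGTGAgatg
centromere side, peak of chromosome 7: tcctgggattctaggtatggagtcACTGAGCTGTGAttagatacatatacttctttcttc

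The libraries held 61155168 (odd) and 65783155 (even) mapped reads, of which 6972538 (11.4%) and 7052802 (10.7%) were left once reads at the same position had been removed. The odd list held 14261 peaks and the even list 3637, of which 608 and 184 were not on autosomes. All odd and even peak heights below are summit pileups, the number of extended fragments over the highest base. Because reads were extended to 200 bp and 1 read per position and strand was kept, the pileup cannot pass 400, and peaks at that value have no order. The pileup was compared within each list, and between the lists only for peaks at the same place.

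Both lists were denser near the ends than in the interiors, the even list more so. Undetermined bases were left out of the length, which left 37.5 Mb on the centromere side, 35.6 Mb on the distal side and 2323 Mb between them. The even list held 3.55 peaks per Mb on the centromere side (2.97 to 4.20), 2.41 on the distal side (1.93 to 2.98) and 1.39 in the interiors (1.34 to 1.44). This was 2.55 times the interior density on the centromere side (2.13 to 3.03) and 1.73 times on the distal side (1.38 to 2.15). The odd list held 7.10 (6.27 to 8.0), 6.82 (5.99 to 7.73) and 5.66 (5.56 to 5.76) peaks per Mb, ratios of 1.25 (1.11 to 1.42) and 1.2 (1.06 to 1.37). The centromere side was denser than the distal side in the even list (1.47 times, 1.11 to 1.95). In the odd list the ratio of the sides was 1.04 (0.871 to 1.24), an interval that included 1. Odd peaks outnumbered even peaks 4.06 to 1 in the interiors (3.91 to 4.23), 2.83 to 1 on the distal side (2.20 to 3.66) and 2.0 to 1 on the centromere side (1.62 to 2.48).

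The ratios were smaller with neighbouring peaks joined or without the peaks that both lists held. With peaks under 50 kb apart counted as 1, the ratio to the interior on the centromere side was 0.966 (0.814 to 1.14) in the odd list and 1.44 (1.10 to 1.86) in the even list, and on the distal side 1.05 (0.888 to 1.23) and 1.49 (1.14 to 1.93). Without the peaks present in both lists the ratio was 0.961 (0.831 to 1.11) and 1.37 (1.05 to 1.77) on the centromere side and 1.08 (0.935 to 1.23) and 1.23 (0.922 to 1.62) on the distal side. Chromosomes 11 and 16 contributed most to the even list, with 24 centromere-side peaks each, and without both the centromere-side ratio was 1.81 (1.44 to 2.24) in the even and 1.12 (0.971 to 1.28) in the odd list. Of the 19 autosomes, 13 were denser on the centromere side than in their own interior in each list, and 13 (odd) and 14 (even) on the distal side.

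Peaks crowded into the outermost sequence. In the first 100 kb of determined bases the odd list held 57 peaks (30 per Mb, 22.7 to 38.9) and the even list 51 (26.8 per Mb, 20 to 35.3). In the last 100 kb the counts were 37 (19.5 per Mb, 13.7 to 26.8) and 34 (17.9 per Mb, 12.4 to 25). In these outermost windows the lists were about equally dense, although the odd list was the denser of the pair everywhere else. From 100 to 500 kb the centromere side was still above the interior level, at 10.4 odd and 5.66 even peaks per Mb, while the distal side held 4.74 and 1.45. Beyond 500 kb all even densities lay between 1.26 and 1.58 per Mb, with intervals that included the interior level. The odd densities there lay between 3.89 and 7.16, and the one from 500 to 1000 kb on the centromere side was below the interior level (3.89 per Mb, 2.74 to 5.37).

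**Figure D1:**
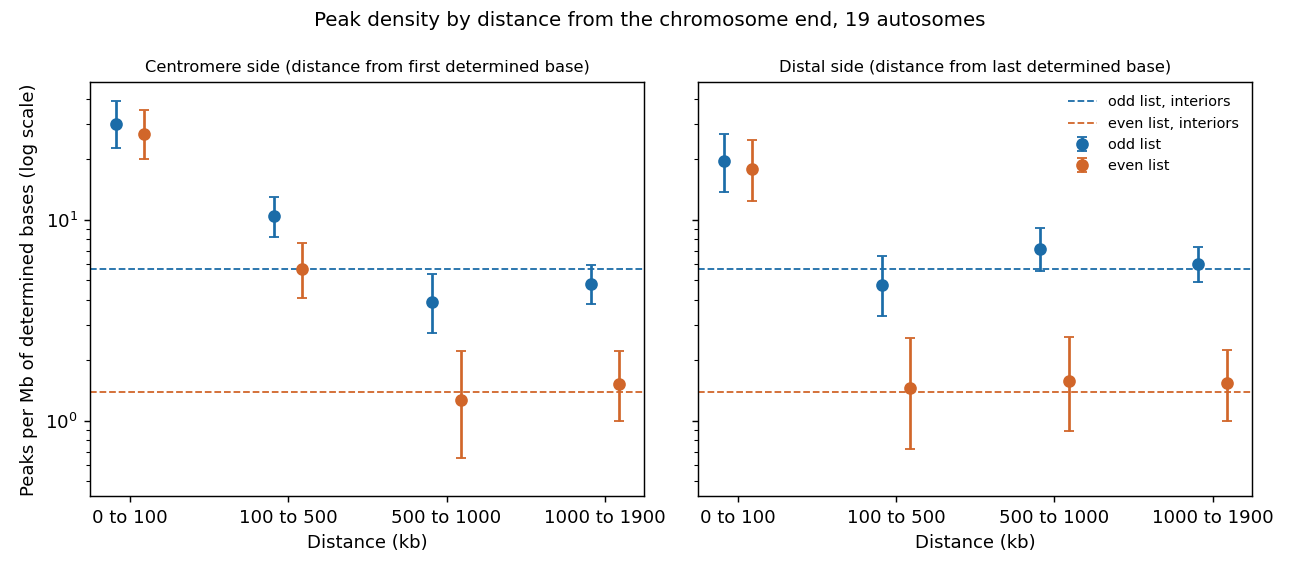
Peaks per Mb of determined bases (log scale) against distance from the first (left) or last (right) determined base in kb, for the odd (blue) and even (orange) lists over 19 autosomes. Bars are exact 95% Poisson intervals and dashed lines the interior densities. In the outermost 100 kb the odd and even densities were 30 and 26.8 per Mb on the centromere side and 19.5 and 17.9 on the distal side, and the even list fell to its interior level of 1.39 beyond 500 kb.

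End peaks were found in both lists far more often than interior peaks. Of all autosomal peaks, 3.98% of the odd list and 15.6% of the even list overlapped a peak of the other list by at least 1 bp. On the centromere side 69 of 266 odd peaks did so (25.9%, 21 to 31.5) and 71 of 133 even peaks (53.4%, 44.9 to 61.6). On the distal side the counts were 33 of 243 odd peaks (13.6%, 9.84 to 18.5) and 33 of 86 even peaks (38.4%, 28.8 to 48.9). In the interiors they were 441 of 13144 (3.36%, 3.06 to 3.68) and 435 of 3234 (13.5%, 12.3 to 14.7). The ends held 3.73% of the autosomal odd peaks but 18.8% of those present in both lists, and 6.34% of the even peaks but 19.3% of those present in both. Overlap also fell with distance from the tip. In the outermost 100 kb 68.4% of odd and 80.4% of even peaks on the centromere side overlapped the other list, against 2.44% and 7.69% between 1000 and 1900 kb. On the distal side the shares were 56.8% and 61.8%, against 3.92% and 15.4%.

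The overlapping end peaks formed 76 pairs on the centromere side and 33 on the distal side. The median ratio of even to odd pileup was 1.0 on each side (0.902 to 1.04 and 0.957 to 1.19), and 59 of 76 and 28 of 33 pairs were within 1.5-fold. Single pairs differed more, with ratios from 0.110 to 3.60 on the centromere side and from 0.320 to 1.92 on the distal side. In the interiors the median ratio was also 1.0 (0.923 to 1.0), and 320 of 460 pairs were within 1.5-fold. Spearman's rho of the pileups over these pairs, which share 2 libraries, neighbouring places and repeat content, was 0.713 and 0.883, against 0.431 over the 460 interior pairs. Of the centromere-side pairs, 32 were higher in the even and 36 in the odd list, and 8 were equal.

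**Figure D2:**
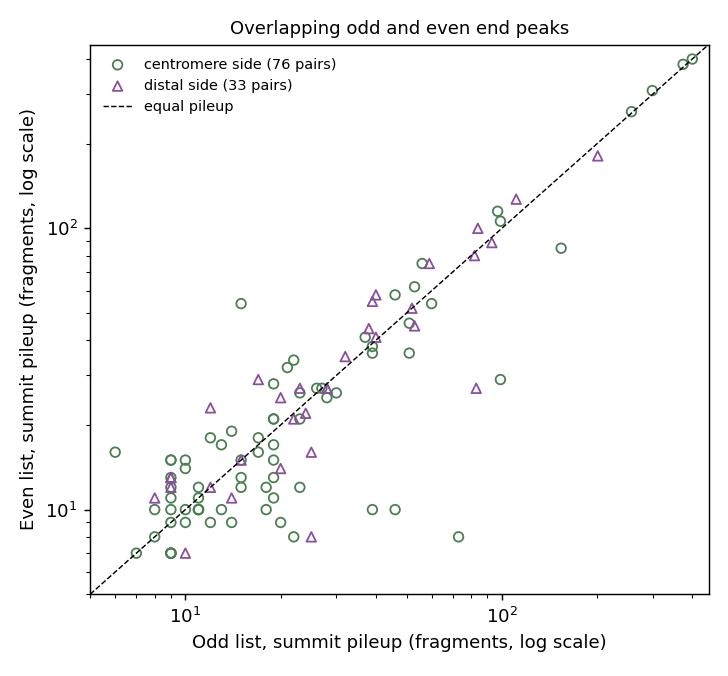
Summit pileup of overlapping odd and even end peaks, odd on the x axis and even on the y axis (fragments, both log scales), for 76 pairs of the centromere side (circles) and 33 pairs of the distal side (triangles). The dashed line marks equal pileup. Most pairs lie along the line up to the limit of 400, and the pairs farthest below it include 73 (odd) against 8 (even) on chromosome 7.

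The end peaks present in both lists were on the median higher and longer than the others, although the lowest had a pileup of 6 and a length of 200 bp. The median odd pileup was 18 in the 69 shared peaks of the centromere side and 10 in the other 197, and 25 and 11 on the distal side. The median even pileup was 15 and 9 on the centromere side and 27 and 9 on the distal side. Over all end peaks the medians were close to the interior ones, 11 and 12 against 11 in the odd list and 11 and 11 against 9 in the even list. The upper tail differed more. A pileup of at least 50 was reached by 4.89% and 4.53% of odd end peaks (centromere and distal side) against 0.913% of interior ones, and by 8.27% and 11.6% of even end peaks against 0.835%. A fold enrichment of at least 10, which 31.0% of odd and 18.5% of even autosomal peaks reached, was found in 38.3% and 37.4% of odd end peaks and in 37.6% and 41.9% of even ones. The fold enrichment followed the pileup (odd pileups of 14 and 15 gave 9.89 and 10.6). This is therefore the same measure at a lower limit. Peaks of 10 kb or more lay on the centromere side alone, 4 in each list, with the longest covering 28450 bp in the odd list.

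**Figure D3:**
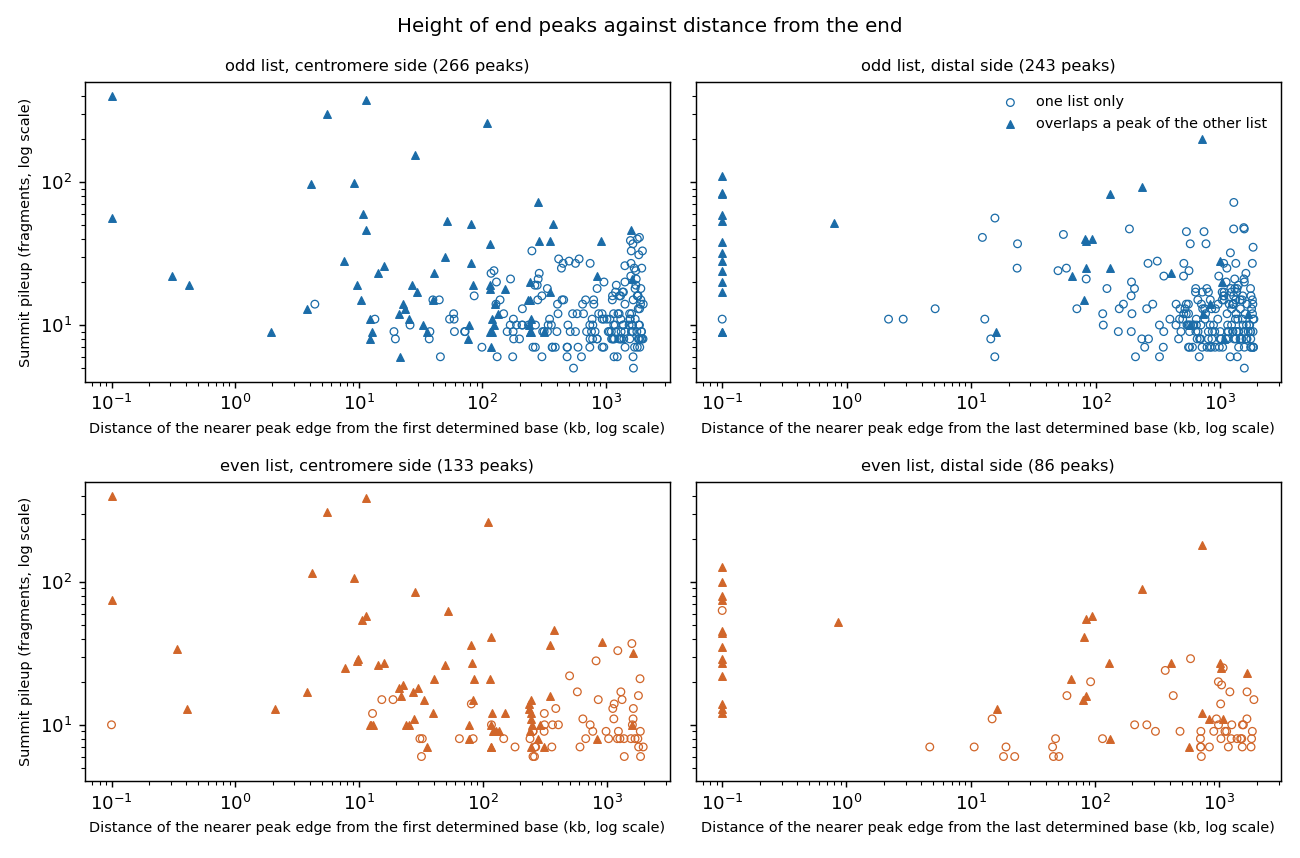
Summit pileup (fragments, log scale) of every end peak against the distance of its nearer edge from the first or last determined base (kb, log scale; distances under 0.1 kb are drawn at 0.1), by list (rows) and side (columns). Filled triangles overlap a peak of the other list and open circles do not. The highest peaks lie within 109750 bp of the first base on the centromere side, and on the distal side high peaks stand at the last base and also farther in, the highest on chromosome 13 (pileup 201).

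The telomeric repeats at the distal tips carried peaks of both lists. On 18 of the 19 autosomes, all but chromosome 4, the last determined bases were copies of TTAGGG, and all of these arrays ran in the same direction, towards the tip. An odd peak lay in the last 1000 determined bases of 14 of these 18 chromosomes, an even peak in 14, both in 13 and neither in 3 (chromosomes 3, 9 and 15). Chromosome 4 also had overlapping peaks of both lists there (odd peak chr4:156356738-156357330, pileup 52 in each list), without telomeric repeats. On chromosome 12 the pileup was 111 (odd) and 127 (even), on chromosome 10 it was 84 and 100, and on chromosome 14 it was 82 and 80. The coding genes nearest to these tips were *Tmem196* (82068 bp), *Vmn2r87* (97033 bp) and *Fgf14* (124423 bp). These 3 tips were the highest, and the lowest of the 13 were those of chromosomes 1 and 6, with an odd pileup of 9 on each and even pileups of 12 and 13. Over the 13 tips the median pileup was 32 in the odd and 35 in the even list, and the ratio of even to odd ranged from 0.700 to 1.71, with 8 higher in the even list and 5 in the odd. On chromosome 5 only the odd list had a peak (pileup 11), and on chromosome 13 only the even list (pileup 63). The array was short on chromosome 9 (6 copies) and on chromosome 15 (11 copies), which held no peak, but chromosome 3, which held none either, had 45 copies.

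**Figure D4:**
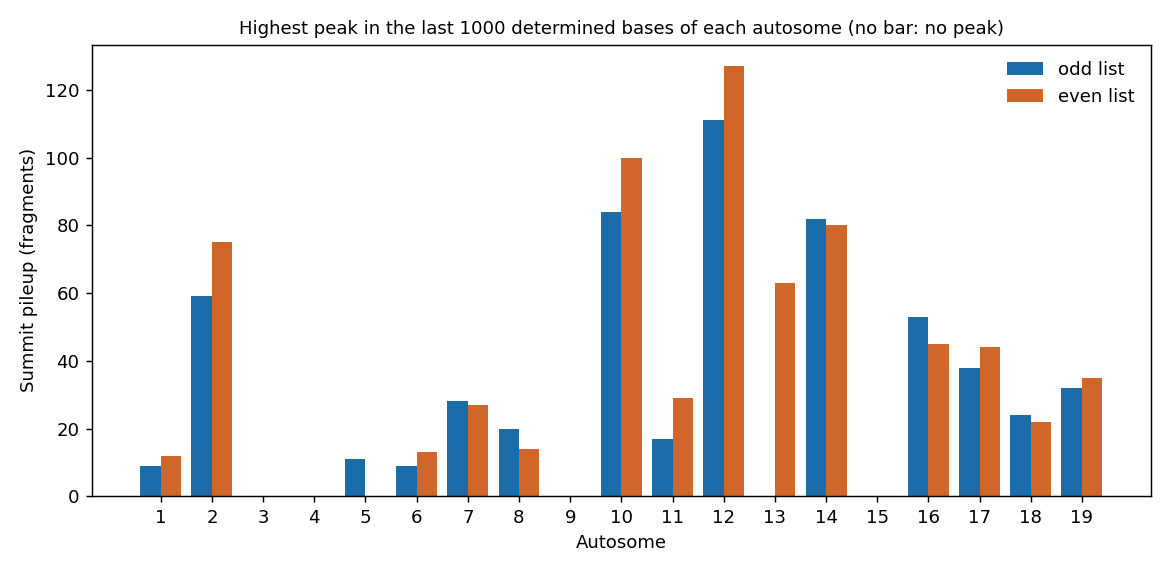
Summit pileup (fragments) of the highest odd (blue) and even (orange) peak with tandem telomeric repeats in the last 1000 determined bases of each autosome. Both bars stand on 13 chromosomes, the highest on chromosome 12 (111 and 127), and chromosomes 3, 4, 9 and 15 have none. Chromosome 4 had a peak of each list there (pileup 52 in both), which held no telomeric repeats and is not drawn.

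Tracts of at least 3 tandem copies of TTAGGG on either strand numbered 529 on the autosomes. Of the 32 tracts within 1000 bases of a distal tip, 27 lay in odd peaks and 27 in even peaks (84.4% each). Tracts were counted singly and are not separate sites, since the 32 lie on 18 chromosomes, with 6 on chromosome 10 alone. Of the other 497, 34 lay in odd peaks (6.84%) and 43 in even peaks (8.65%). Among tracts with at least 10 copies, 21 of 25 terminal ones lay in odd peaks (84.0%) and 9 of 78 others (11.5%). None of the 37 tracts that were on the distal side but not at the tip lay in a peak of either list. Among the peaks, 14 of 243 odd and 14 of 86 even peaks of the distal side held such a tract (5.76% and 16.3%), and all of them lay at a tip. Of the 15 tracts of the centromere side, 0 lay in odd and 6 in even peaks (40%). Among the odd peaks of that side none held one (0 of 266, which allows a share of up to 1.13%). A single even peak did, chr6:4923963-4924162, 17556 bp from the start of *Ppp1r9a*, with a pileup of 6. No other even peak of that side held as many as 2 copies in tandem. The 6 tracts, counted singly, thus lie in this 1 peak, apart from any that only touch the edge of another. The 40% is therefore not a share of separate sites. Of windows of 1000 bp placed at even steps along the chromosomes, 0.0267% on the centromere side and 0.0562% on the distal side held a tract.

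The highest peaks of the centromere side were copies of the major satellite. The pileup of chr9:2999872-3005283 was 400 in both lists, that of chr9:3011391-3038394 was 374 (odd) and 383 (even), and that of chr9:3005527-3008923 was 299 and 309. The peak at chr12:3109751-3110208, whose sequence is shown above, reached 257 and 260. The highest even peak after these was chr18:3004130-3006806, with 115 against 97 in the odd list, 116606 bp from the vomeronasal receptor gene *Vmn1r238*. The first 3 lie in an array of predicted genes (*Gm10722*, *Gm11168*, *Gm10721* and others) that the annotation places at the start of chromosome 9, and the one on chromosome 12 lies 199761 bp from *Rab10*, a small GTPase of vesicle transport. Counting a place as a copy where it held at least 20 runs of 16 bases of the unit shown, the autosomes held 5 places on the centromere side (chromosomes 4, 9, 11 and 12), 0 on the distal side and 11 in the interiors. All 5 at the centromere side had a peak in each list, and so did 9 of the 11 in the interiors, where the pileup reached 400 on chromosome 2. These places covered 44286 bp on the centromere side and 9095 bp in the interiors. With at least 20 such runs required within a single peak, 10 of 266 odd and 10 of 133 even peaks of the centromere side held the unit, on chromosomes 9, 11 and 12, and all of them overlapped the other list. The place on chromosome 4 held 2 peaks of each list (highest pileups 23 and 21), each with fewer runs.

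Peaks also stood in groups just inside the first determined base. On chromosome 11, 18 odd peaks lay between chr11:3100309 and chr11:3239194 and 19 even peaks between chr11:3100337 and chr11:3217485, with 15 and 16 of them shared. These include the longest peaks, among them chr11:3128282-3149020 over *Sfi1*, a centrin-binding spindle pole gene, with a pileup of 154 (odd) and 85 (even), and chr11:3180626-3200049 over *Drg1*, a GTP-binding protein gene, with 51 and 36. On chromosome 16, 10 odd and 15 even peaks stood within about 33 kb from chr16:3235966, but they were low, with pileups of 7 to 20 and 6 to 15. On the distal side the largest group of shared peaks lay on chromosome 2, with 6 odd peaks between 181917310 and 181954937 (pileups 15 to 40), 5 of them shared. The odd list had 7 groups of at least 5 peaks on the centromere side, on chromosomes 4, 6, 9, 10, 11, 16 and 17. A run of own probe bases was found in 1 of the 12 peaks of the group on chromosome 4 and in none of the other 6 groups.

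In the odd list the nearest peak to the first determined base touched it on chromosome 9 (chr9:2999872-3005283), and lay 33 bases from it on chromosome 2 (chr2:3050034-3050633, pileup 56) and 308 bases from it on chromosome 11 (chr11:3100309-3100679, pileup 22). In the even list a peak touched it on chromosomes 9 and 4 (chr4:3049989-3050429, pileup 10), and one lay 11 bases from it on chromosome 2. Over the 19 chromosomes the nearest odd peak of the centromere side lay 0 to 545839 bases from the first determined base (median 39766) and the nearest even peak 0 to 1969022 (median 114355). On the distal side an odd peak reached the last determined base on 12 chromosomes and an even peak on 11.

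The repeat with a 31-bp unit carried the highest distal peaks outside the telomere. At chr13:119596472-119603241, within the annotated span of *Tmem267*, the pileup was 201 (odd) and 181 (even), the highest of the distal side in both lists. At chr9:124256221-124258077, 53822 bp from *2010315B03Rik*, it was 93 and 89. A further high distal peak, chr1:195241461-195241913, 64745 bp from the complement receptor gene *Cr2*, was unequal, at 83 and 27, and lay in no tandem repeat. With the same rule as for the satellite, the autosomes held 6 places with this unit on the distal side, on chromosomes 9 and 13, of which 4 had an odd and 3 an even peak. They held 2 places in the interiors, both on chromosome 7, which had no peak in either list. The unit was taken from the highest distal peak after its height was known, so these counts are a description.

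Tandem repeats of any unit were common under end peaks. In 1000 bp around the summit, a repeat was counted where at least 60% of the bases were identical to those 2 to 400 bp further along. By this measure, which was chosen after values had been seen, 9.02% of odd and 20.3% of even peaks of the centromere side lay in a tandem repeat, 6.17% and 16.3% on the distal side, and 0.738% and 2.63% in the interiors. Windows placed at even steps gave 1.01%, 0.449% and 0.306%. The limit of 60% left out odd peaks on repeats shown above, the 31-bp repeat of chromosome 13 (57.6%) and the satellite copy of chromosome 12 (32.3%). The telomeric odd peaks of chromosomes 6, 8, 11, 17 and 19 also fell below it (42.5% to 59.8%). Among odd peaks the repeats lay under 22 of 69 shared against 2 of 197 other peaks on the centromere side, and under 12 of 33 against 3 of 210 on the distal side. Among even peaks the counts were 21 of 71 against 6 of 62, and 12 of 33 against 2 of 53. The interiors showed the same order, with 32 of 441 shared against 65 of 12703 other odd peaks and 35 of 435 against 50 of 2799 even peaks. Soft-masked repeats also covered more of the shared peaks, a median of 62.5% of their bases against 21.5% on the centromere side and 81.4% against 17.9% on the distal side of the odd list. The part of repeats in the density and overlap near the ends was not tested. The best-matching shift was 100 bp or more in 8 odd and 7 even peaks of the centromere side. On the distal side it was so in 0 odd and 1 even peak. It was under 10 bp in 6 odd and 7 even peaks of the distal side and in none of the centromere side. In the interiors this held for 22 odd and 19 even peaks. The shift can be a multiple of the unit, as with 12 and 18 bp in the telomeric odd peaks of chromosomes 7 and 14. The 19-bp repeat near the start of chromosome 10 (chr10:3111364-3114017) had a pileup of 46 (odd) and 58 (even). The box of 15 bases that the centromere protein CENP-B binds (either strand) was found 10 times on the centromere side and 10 times on the distal side, with none in a peak. Of 535 boxes in the interiors, 12 lay in odd peaks (2.24%) and 8 in even peaks (1.5%).

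Runs of probe sequence were less frequent in shared peaks than in peaks of 1 list, near the ends and in the interiors. At least 12 consecutive bases of a probe from the own set were found in 27.3% of all autosomal odd peaks and 8.46% of even peaks, with 6 odd and 4 even probes whose letters could be checked on the genome. Of the odd end peaks, 53 of 266 (19.9%, 15.6 to 25.1) on the centromere side and 70 of 243 (28.8%, 23.5 to 34.8) on the distal side held one, against 27.4% of interior peaks. Among odd peaks without overlap the shares were 24.9% and 33.3%, and among shared odd peaks 4 of 69 (5.80%) and 0 of 33 (which allows up to 9.09%). Of the even end peaks, 8 of 133 (6.02%) and 8 of 86 (9.30%) held a run, none of them shared. In the interiors 38 of 441 shared odd peaks (8.62%) and 4 of 435 shared even peaks (0.920%) held one, against 28.1% and 9.72% of the peaks without overlap. With probe 2 added, whose letters match the annotated transcript, the even shares were 10.5%, 16.3% and, in the interiors, 24.3%.

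Probe 7, printed above, was matched most, in 30 odd peaks of the centromere side and 31 of the distal side. Odd peaks with a run had a median pileup of 17 on the centromere side and 13 on the distal side, against 11 and 12 without. Sites with such a run were about as dense near the ends as elsewhere, at 9.07, 8.92 and 8.32 sites per Mb for the odd probes. Of them 16.2% (12.6 to 20.5), 22.6% (18.4 to 27.6) and 19.2% (18.6 to 19.7) lay in an odd peak. The 4 shared odd peaks with a run all matched probe 7 and were higher in the odd list, at 73 against 8 near *Myadm* (chr7:3279865-3280598), 46 against 10 in *Pcx*, 39 against 10 near *Cdk6* (chr5:3289054-3289965) and 22 against 8 in *Dnmt3a*. They were 4 of the 5 lowest ratios of even to odd pileup among the 76 pairs of that side.

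**Figure D5:**
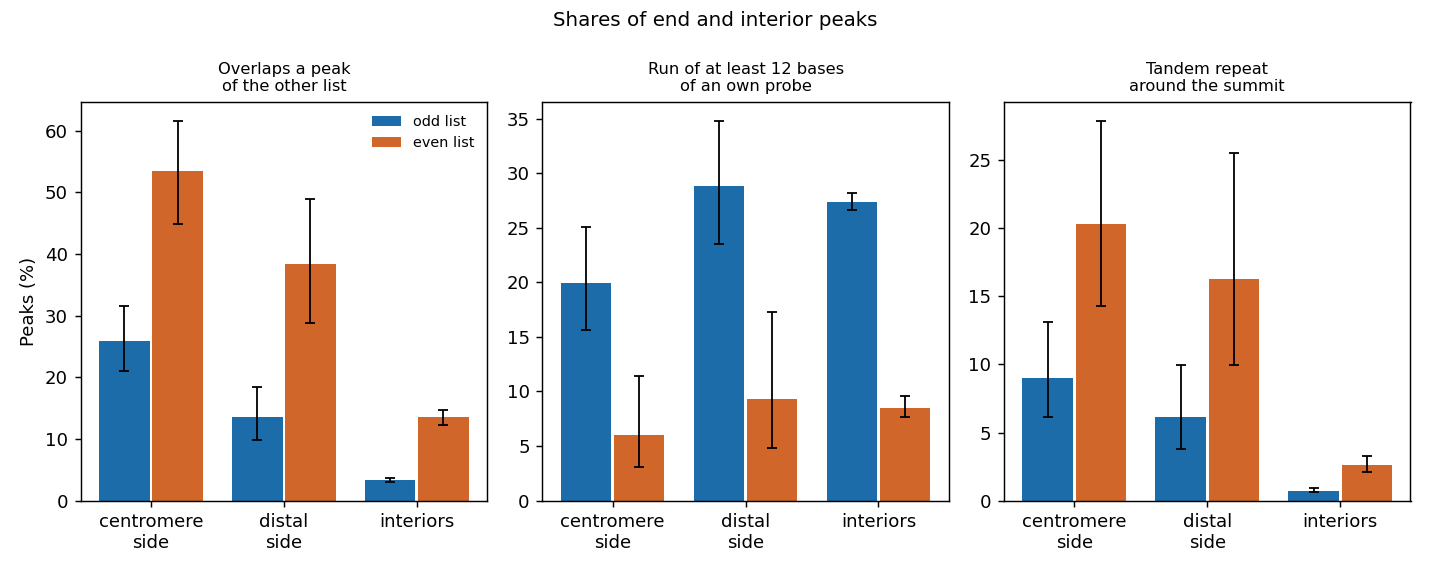
Percentage of odd (blue) and even (orange) peaks of the centromere side, the distal side and the interiors that overlap a peak of the other list (left), hold 12 or more consecutive bases of a probe from their own set (middle) or lie in a tandem repeat (right). Bars carry 95% Wilson intervals, and the y axes differ. Overlap and tandem repeats were more frequent at both ends in both lists, for example 53.4% against 13.5% for overlap of even peaks on the centromere side, while probe runs were not (19.9% and 28.8% of odd end peaks against 27.4%).

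Some high end peaks belonged to 1 list alone. The highest odd one, chr4:155066582-155067498, covered the start of *Pex10*, a gene of peroxisome assembly, with a pileup of 72 and no probe run. The next were on chromosome 19 (chr19:61315033-61316030, 56, shown above), in *Lrrc7*, a scaffold protein gene (chr3:158386997-158387576, 48, with a run of probe 7), and over the start of *Slc17a9*, a vesicular nucleotide transporter gene (chr2:180725027-180726073, 1 of 3 with 47). Among even peaks alone, the highest was the tip of chromosome 13 (63), followed by chr5:4594507-4595376, 162659 bp from *Fzd1*, a Wnt receptor gene (37).

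Protein-coding genes lay more densely near the ends, at 12 and 13.9 per Mb against 8.55 in the interiors, and a gene was counted where a peak lay in it or within 3000 bp of a start. Of 450 such genes on the centromere side and 496 on the distal side, 185 had an odd and 57 an even end peak, and 35 had both (the share of interior genes was not computed), 24 on the centromere and 11 on the distal side. In 18 of these 35 the odd and even peaks overlapped, and 9 of the 35 were predicted genes of the satellite array on chromosome 9. Near a coding start (within 3000 bp) lay 18% of odd and 10.5% of even peaks of the centromere side and 22.6% and 14% of the distal side, against 17% and 15.1% of interior peaks and 12.2% and 15.7% of windows placed at even steps on the centromere and distal side.

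Some of the 35 genes are given with their values, and were chosen after these had been seen. In *Pcx*, which encodes the pyruvate carboxylase of the first step of gluconeogenesis, the odd peak chr19:4590183-4591304 had a pileup of 46, and the even peak under it 10. The odd peak held a run of probe 7. In *Ghr*, the growth hormone receptor gene, odd peaks reached 16 and the even peak 13, at different places. In *Grk5*, a kinase gene of G protein-coupled receptors, peaks of both lists lay at the same place (chr19:60924599-60924898, 23 and 27). They held no probe run and no tandem repeat by the measure above, but 93.0% of the odd peak was soft-masked. In *Lars2*, the mitochondrial leucyl-tRNA synthetase gene, peaks of both lists also lay at the same place (chr9:123461864-123462186, 20 and 25). In *Dnmt3a*, a DNA methyltransferase gene, the highest peaks were 22 (odd, with a run of probe 7) and 15 (even, at another place). In *Prkcz*, an atypical protein kinase C gene, they were 15 and 19, apart from each other.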

How the data were processed

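The mouse hepatocyte ChIRP libraries were 2, one for each probe set. Per the submitters' processing notes, reads were handled with Novoalign 4.02.02 and SAMtools 1.9 on mm10. Per the file headers, the authors called peaks in each library on its own with MACS2 2.1.1.20160309 (no control, reads of 101 bp extended to 200 bp, 1 read kept per position, q limit 0.05). How reads with several matches were placed is not given in the sources used here. The deposited peak lists give the summit pileup (a signal in fragments, not scaled between libraries), the fold enrichment and the −log10 q-value of each peak. The fold enrichment is a linear ratio to a background, and it followed the pileup. Among odd end peaks a pileup of 9 gave 6.59 on different chromosomes, and 400 gave 264. The ratio was thus not set against a local background and is no separate measure of height. The deposited start of 1 even peak was restored from its end and length.

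Peaks were set on the RefSeq sequence of GRCm38 and the GENCODE M21 annotation. Density is peaks per Mb of determined bases with exact Poisson intervals, ratios carry exact conditional (Clopper-Pearson) intervals, shares carry Wilson intervals and medians carry order-statistic intervals, all at 95% and for counting error only. The limit that a count of 0 allows is 3 counts. Groups came from the probe labels, and no p-value was computed, since each set was 1 library. The letters of the 14 probes were read from page images, so only the 10 that match *Gm19619* whole in the genome were used, with probe 2, whole in the GENCODE transcript, as an alternative. Functions were tested on simulated data with Python 3.11.15, numpy 2.4.6, pandas 2.3.3 and scipy 1.17.1.

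The peaks, lists and repeats were chosen with earlier results of these data known. Named were the 5 highest peaks of each list and side, the 5 highest overlapping pairs of each side, the peaks nearest the ends, the peaks with telomeric repeats (counts, and the 3 highest in full), and coding genes with end peaks of both lists. The tandem-repeat measure, the repeat units, the highest peaks of 1 list alone, the groups of peaks and the genes described at the end were chosen after their values were seen. Sequence of chromosome 18 and of the distal tips is not reported here. Alternatives are given in the closing section.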

Additional observations from a re-analysis of the deposited data

How the results depend on the processing

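No paired analysis was possible because each probe set was 1 library and no test was made, and leaving out a replicate was not possible either. Of 134 alternative values, 83 stayed inside the interval of the reported value, 48 moved out of it and 3 changed direction. All 3 concern the odd density ratio of the centromere side (1.25): per base of the assembly, with undetermined bases counted, it was 0.496 (even 1.01), without peaks present in both lists 0.961 (even 1.37, distal even 1.23), and with peaks under 50 kb apart counted as 1 it was 0.966 (even 1.44, distal odd 1.05). The construction of the first shows its cause, since most of the centromere side is undetermined. For the others the cause was not tested. With peaks under 1000 bp apart counted as 1 the centromere-side ratios were 1.08 (odd) and 1.85 (even).

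With a −log10 q of at least 5, the shared share of even peaks was 62.6% and 51.7% (centromere and distal side), and all other values stayed inside their intervals, among them the odd density ratios (1.23 and 1.19). Among peaks enriched at least 10-fold, the density ratios were 1.56 and 1.47 (odd) and 5.61 and 4.25 (even), and the shared shares were 25.3% (odd, distal) and 66.0% and 63.9% (even). The shared share of interior peaks was not computed under this or any other alternative, so the changes cannot be called particular to the ends. With ends of 4 Mb and 1 Mb the density ratios were 1.64 and 1.40 (odd) and 4.11 and 2.41 (even), and the shared shares 39.2% and 22.0% (odd) and 65.1% and 51.8% (even). With ends of 6 Mb and 3 Mb the shared odd shares were 19.3% and 9.41% and the even centromere-side ratio 1.98.

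The alternatives with a 50 kb distance, without the outermost 100 kb, without chromosomes 11 and 16 and with probe 2 were chosen after seeing the data. Without the outermost 100 kb the ratios were 1.04 (odd, centromere side), 1.66 and 1.11 (even), and the shared shares 14.4% and 5.83% (odd) and 36.6% and 23.1% (even). Without chromosomes 11 and 16 the centromere-side ratios were 1.81 (even) and 1.12 (odd) and the shared odd share 19.3%. With overlap of at least 50% of both peaks, the shared shares of the centromere side were 19.5% and 39.1%. Probe runs of at least 10 bases were found in 43.6% and 56.0% of odd peaks and 17.3% of even centromere-side peaks, and of at least 14 bases in 4.14% and 3.29% (odd) and 2.26% and 3.49% (even). Within 1000 bp of a coding start lay 9.77% and 11.9% of odd peaks and 3.49% of even distal peaks. Interior shares for these run lengths and this distance were not computed. The counts of peaks with telomeric repeats and the median heights stayed inside their limits under every alternative run for them. For the heights, fold enrichment in place of pileup could hardly give another result, since it follows the pileup. Its values are among the 83 that stayed inside. The limits of 10-fold and, in the odd list, of −log10 q were likewise limits on pileup. With 1 library for each set, library and probe set cannot be told apart. The reads left after filtering were similar in number, at 6972538 (odd) and 7052802 (even). The absence of a peak from a list does not show that the place lacked reads.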
